A study of Mus musculus with 6 samples.

Results

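Chromatin accessibility was examined at the peaks of 9 genes that mark or shape tissue macrophages, Adgre1, Cd68, Mrc1, Vcam1, C1qa, C1qb, C1qc, Maf and Spic. A peak was taken as a member when the deposited annotation named one of these genes as the nearest transcription start site, which gave 96 of the 109859 peaks in the table. Maf had 61 peaks, Adgre1 and Vcam1 had 11 each, Mrc1 had 7, C1qa had 2, and Cd68, C1qb, C1qc and Spic had 1 each. The nearest start does not show which gene a distant peak acts on.

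The data are ATAC-seq libraries, in which the Tn5 transposase inserts adapters into open DNA, from lineage-negative bone marrow cells of mice, a fraction labelled as stem and progenitor cells. The knockout group is 3 mice lacking Mel18 through a conditional deletion in the blood system, and the wildtype group is 3 mice with the genotype given as wildtype. Mel18, the product of Pcgf2, belongs to the Polycomb complex PRC1, which keeps chromatin repressed, and the question was whether its loss alters accessibility. No peak had the Pcgf2 start as its nearest, so the table gives no check of the deletion here. The labels examined here give no Cre driver, strain or age. Libraries are numbered within a genotype, and their mice cannot be told apart.

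Macrophages of marrow, spleen and liver engulf dying cells, expelled red cell nuclei and worn red cells, and they recycle the iron. The receptors Adgre1 and Mrc1, the lysosomal protein Cd68, the adhesion molecule Vcam1 and the complement subunit made of C1qa, C1qb and C1qc belong to their mature program. Spic, an ETS factor related to PU.1, and Maf, a leucine zipper factor, are among its regulators. Lineage depletion aims to remove mature blood cells, so the signal measured here comes from what remained.

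The sequence just before the start is shown for 3 members with different peak coverage, because it lets the promoter peaks be read against their DNA. RefSeq promoter windows (GRCm38.p6) were found for 5 of the 9 genes, and the 250 bases before the start are printed in the direction of transcription, 5′ to 3′. Capitals mark GAGGAA or its reverse complement, the core letters of a PU.1-type ETS element. The Cd68 window is chr11:69666171-69666420, the C1qc window chr4:136892915-136893164 and the C1qb window chr4:136886201-136886450, all on the minus strand.
Cd68: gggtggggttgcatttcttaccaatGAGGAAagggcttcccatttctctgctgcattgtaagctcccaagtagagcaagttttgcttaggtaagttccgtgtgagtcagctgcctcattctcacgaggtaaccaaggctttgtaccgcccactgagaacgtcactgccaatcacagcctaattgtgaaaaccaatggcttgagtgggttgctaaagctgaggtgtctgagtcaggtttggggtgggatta
C1qc: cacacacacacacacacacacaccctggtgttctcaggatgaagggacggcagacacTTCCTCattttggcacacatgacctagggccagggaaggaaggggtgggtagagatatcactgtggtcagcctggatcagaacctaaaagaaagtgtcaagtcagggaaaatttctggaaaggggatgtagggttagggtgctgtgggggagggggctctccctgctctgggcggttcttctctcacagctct
C1qb: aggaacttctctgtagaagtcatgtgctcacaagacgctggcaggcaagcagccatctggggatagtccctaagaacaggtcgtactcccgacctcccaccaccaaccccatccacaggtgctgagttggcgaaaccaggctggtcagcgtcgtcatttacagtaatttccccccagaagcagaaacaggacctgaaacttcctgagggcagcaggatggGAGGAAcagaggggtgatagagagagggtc
The promoter peak of Cd68 covered all 250 bases of its window, that of C1qc covered 170 bases, and no peak of the table covered any base of the C1qb window. GAGGAA occurred once in each of these windows, with 219 bases between it and the start in Cd68, 187 in C1qc and 24 in C1qb. On both strands, GAGGAA was present in 23.3% of 32851 windows of the same length, so a match is common. The Cd68 window also held 2 matches to the AP-1 letters TGANTCA (6.75% of all windows) and 1 to the C/EBP letters TTGCNNAA (9.56%), and no matches overlapped each other. TGCTGAC, the core of a MAF-type element (3.81% of all windows), and TATAAA (12.4%) had no match in any of the 5 windows. The Mrc1 window held 3 GAGGAA matches and the Spic window none, and no peak covered either. A match of letters does not show that a factor binds.

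Libraries held 16709921, 14487908 and 14797735 peak reads in knockout and 12000808, 12166259 and 13769335 in wildtype, of which member peaks took 5572 to 9304. Wildtype library 3 stood apart in the summed level of these genes. Summed over all 96 peaks, counts scaled to a common library total by TMM library sizes (CPM) were 539.1, 551.8 and 594.5 in knockout libraries 1, 2 and 3. The sums were 604.3, 620.7 and 415.4 CPM in wildtype libraries 1, 2 and 3. Both other wildtype libraries lay above every knockout library, and wildtype library 3 lay far below all of them. The means were 561.8 ± 29.0 CPM in knockout and 546.8 ± 114.1 CPM in wildtype (SD, n = 3 each). Single genes differed from the sum. Wildtype library 3 was the highest library for C1qb and Spic, and it was not the lowest for C1qa or C1qc. In bulk chromatin, fewer cells of a type and less opening per cell cannot be told apart.

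Markers of other cells moved with wildtype library 3. The 8 neutrophil genes, all with peaks, summed to between 337.8 and 340.9 CPM in knockout and to 368.1, 404.2 and 169.0 CPM in wildtype libraries 1, 2 and 3. Of the 7 erythroid genes 6 had peaks (not Hbb-bt), and they summed to between 181.6 and 244.5 CPM in knockout and to 172.5, 192.5 and 310.8 CPM in wildtype. Of the 6 monocyte genes 5 had peaks (not Chil3), and they summed to between 170.1 and 197.5 CPM in knockout and to 166.1, 185.6 and 133.5 CPM in wildtype. Wildtype library 3 was the lowest of the 6 for neutrophil and monocyte genes and the highest for erythroid genes. The 8 T and NK cell genes, all with peaks, summed to 375.0, 391.8 and 386.1 CPM in knockout and to 429.3, 425.0 and 484.4 CPM in wildtype, lower in every knockout library. All 8 stem and progenitor genes had peaks, with sums of 537.2 to 584.2 CPM in knockout and 516.3 to 558.5 CPM in wildtype. The part of these cell mixtures in the results was not tested. Many member results are given with and without wildtype library 3. Counts of peaks without overlap and values of single genes that are not members are given only with it. The same holds for counts at an unadjusted p in the further gene lists.

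**Figure D1:**
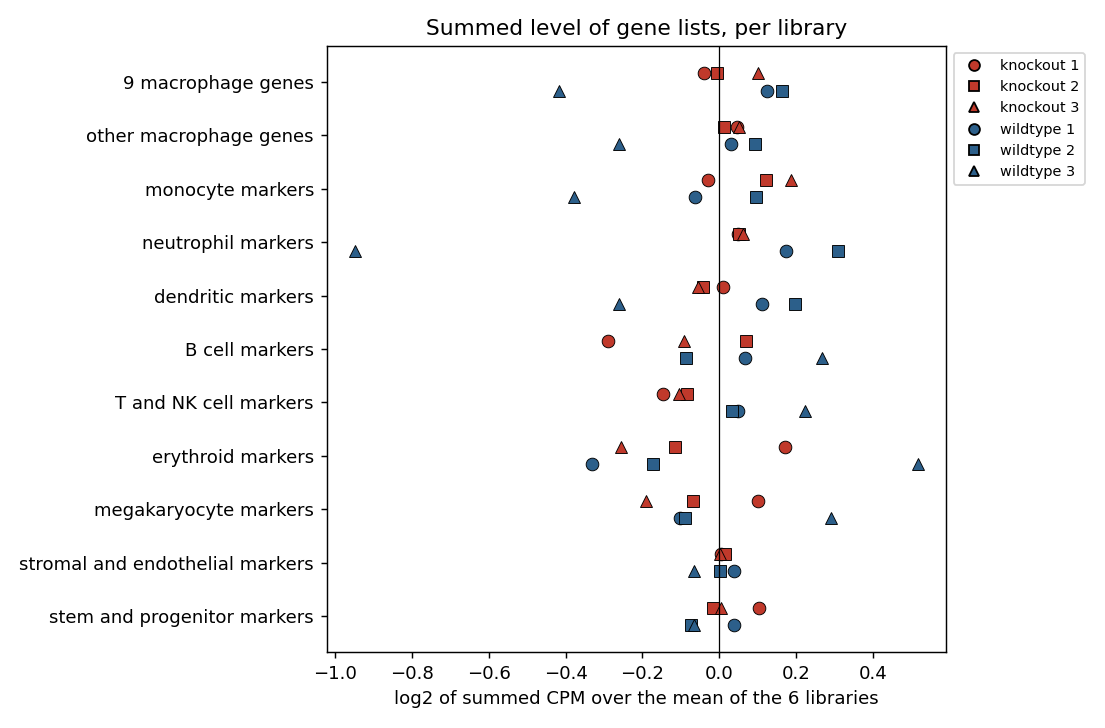
Summed CPM of all peaks of each gene list, as log2 of the value over the mean of the 6 libraries (x axis), with Mel18 knockout libraries in red above wildtype libraries in blue. Wildtype library 3 (blue triangle) is the lowest library for the macrophage, monocyte, neutrophil, dendritic, and stromal and endothelial lists. It is the highest for the erythroid, megakaryocyte, B cell and T and NK cell lists.

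No member peak passed an adjusted p of 0.05 in the comparison of knockout with wildtype, where 0% of all peaks were called (edgeR quasi-likelihood test over 109859 peaks, smallest adjusted p of a member 0.155). DESeq2's Wald test and edgeR's likelihood ratio test also called 0 member peaks. At an unadjusted p under 0.05, 6 member peaks were higher and 1 was lower in knockout, which is 6.25% and 1.04% of them. Among all peaks these shares were 3.1% and 5.97%. Promoter peaks, of which 1.1% were higher and 19.1% lower, made up 7.29% of member peaks and 19.9% of all peaks. Away from promoters, the higher and lower shares were 6.74% and 1.12% of member peaks, beside 3.60% and 2.70% of all such peaks. The count of higher member peaks was 2 without knockout library 2 and 1 without knockout library 3, and that of lower ones was 5 without wildtype library 2, 6 without wildtype library 3 and 2 without knockout library 3. Member libraries separated without overlap between the groups at 11 peaks with higher and 2 peaks with lower values in knockout, which is 11.5% and 2.08%, beside 7.63% and 8.01% of all peaks. The member peaks without overlap were 5 higher and 2 lower at Maf, 3 higher at Vcam1, 2 higher at Mrc1 and 1 higher at Adgre1. Away from promoters, 12.4% of member peaks separated on the higher side and 2.25% on the lower side, beside 8.62% and 4.14% of all such peaks.

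The median log2 fold change of the 96 peaks was 0.18, beside 0.02 over all peaks, and 60 lay above 0 (62.5%, beside 51.8% of all peaks). Weak peaks tended to be higher in knockout across the whole table, with a median of 0.18 in the weakest of 10 level classes and -0.21 in the strongest. The member peaks were weak, with a median of 2.90 CPM against 3.61 CPM for all peaks, and 18 of them fell in the weakest class and 6 in the strongest. Against the median of its own level class, 59 of 96 member peaks were higher. After a trended normalization, which removes differences that follow level, the member median was 0.12 and that of all peaks -0.01. At an unadjusted p under 0.05 in that fit, 4.17% of member peaks were higher and 3.13% lower, beside 2.34% and 3.28% of all peaks.

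Among single libraries, wildtype library 3 moved the member median most. Without it the median was 0.03, beside 0.02 for all peaks. That comparison called 0 member peaks higher, beside 0.29% of all peaks, and 3 member peaks lower (3.13%), beside 2.45% of all peaks. Leaving out any other single library gave member medians between 0.08 and 0.24 and called 0 member peaks.

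**Figure D2:**
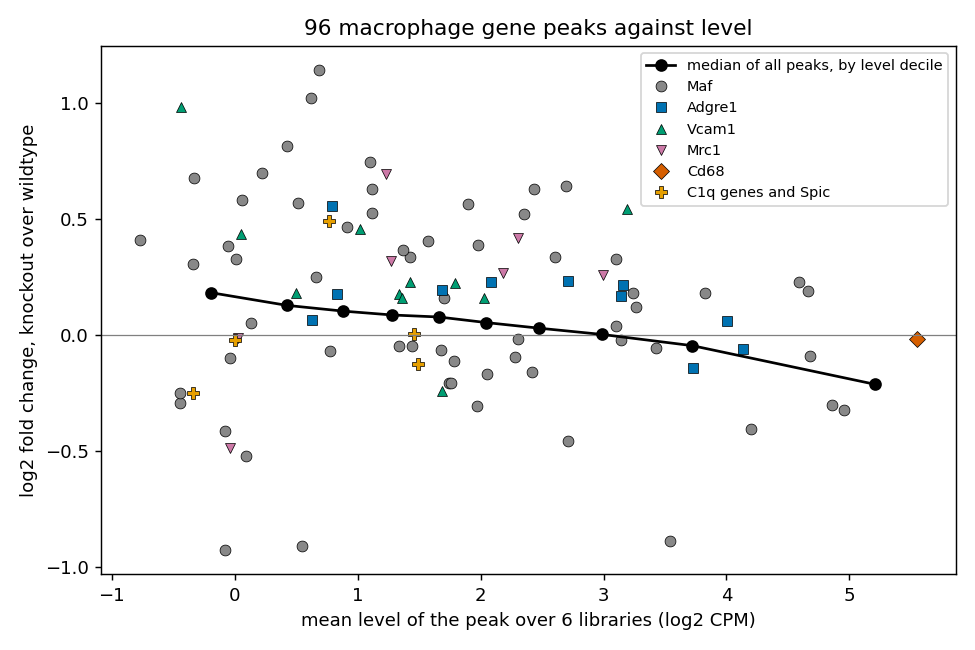
Log2 fold change of knockout over wildtype (y axis) against mean level in log2 CPM over 6 libraries (x axis) for the 96 member peaks. The black line joins the medians of all peaks in 10 level classes, which run between 0.18 and -0.21, and 59 member peaks lie above the median of their class.

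Counts were also summed over all peaks of each gene. None of the 9 genes passed an adjusted p of 0.05, and 0% of 19013 genes did (edgeR quasi-likelihood test). The likelihood ratio test called 0 of the 9 as well, and DESeq2's Wald test, which gave an adjusted p only for Adgre1 and Maf, called neither. At an unadjusted p under 0.05, Mrc1 was higher and no member was lower, beside 4.39% of all genes higher and 6.71% lower. Mrc1 was also the only member gene whose groups did not overlap, on the higher side, where 8.49% of all genes were found.

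Level was compared between genes per kilobase of peak. Peaks in Mrc1 introns whose nearest start is the microRNA gene Mir511 were not counted for Mrc1. Cd68 stood first, with 98.9 to 116.8 CPM per kb in knockout libraries and 48.3 to 138.5 CPM per kb in wildtype libraries. Adgre1 came next at 37.1 to 41.7 CPM per kb in knockout and 29.2 to 41.5 CPM per kb in wildtype. Maf followed at 25.9 to 30.2 CPM per kb in knockout and 20.1 to 29.5 CPM per kb in wildtype. In knockout these 3 ranges did not overlap, while in wildtype those of Adgre1 and Maf did. Mrc1, Vcam1, C1qc and C1qa formed a lower group, with library values between 12.5 and 20.5 CPM per kb in knockout and between 9.77 and 19.1 CPM per kb in wildtype. Mrc1 and Vcam1 overlapped each other in both genotypes, as did C1qc and C1qa. Spic had a mean of 10.6 CPM per kb in knockout and 10.1 CPM per kb in wildtype. C1qb had 6.68 CPM per kb in knockout and 7.39 CPM per kb in wildtype. These genes had the lowest means and overlapped each other in wildtype. Their highest wildtype libraries, at 11.9 CPM per kb for Spic and 11.6 CPM per kb for C1qb, lay within the wildtype range of the lower group.

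**Figure D3:**
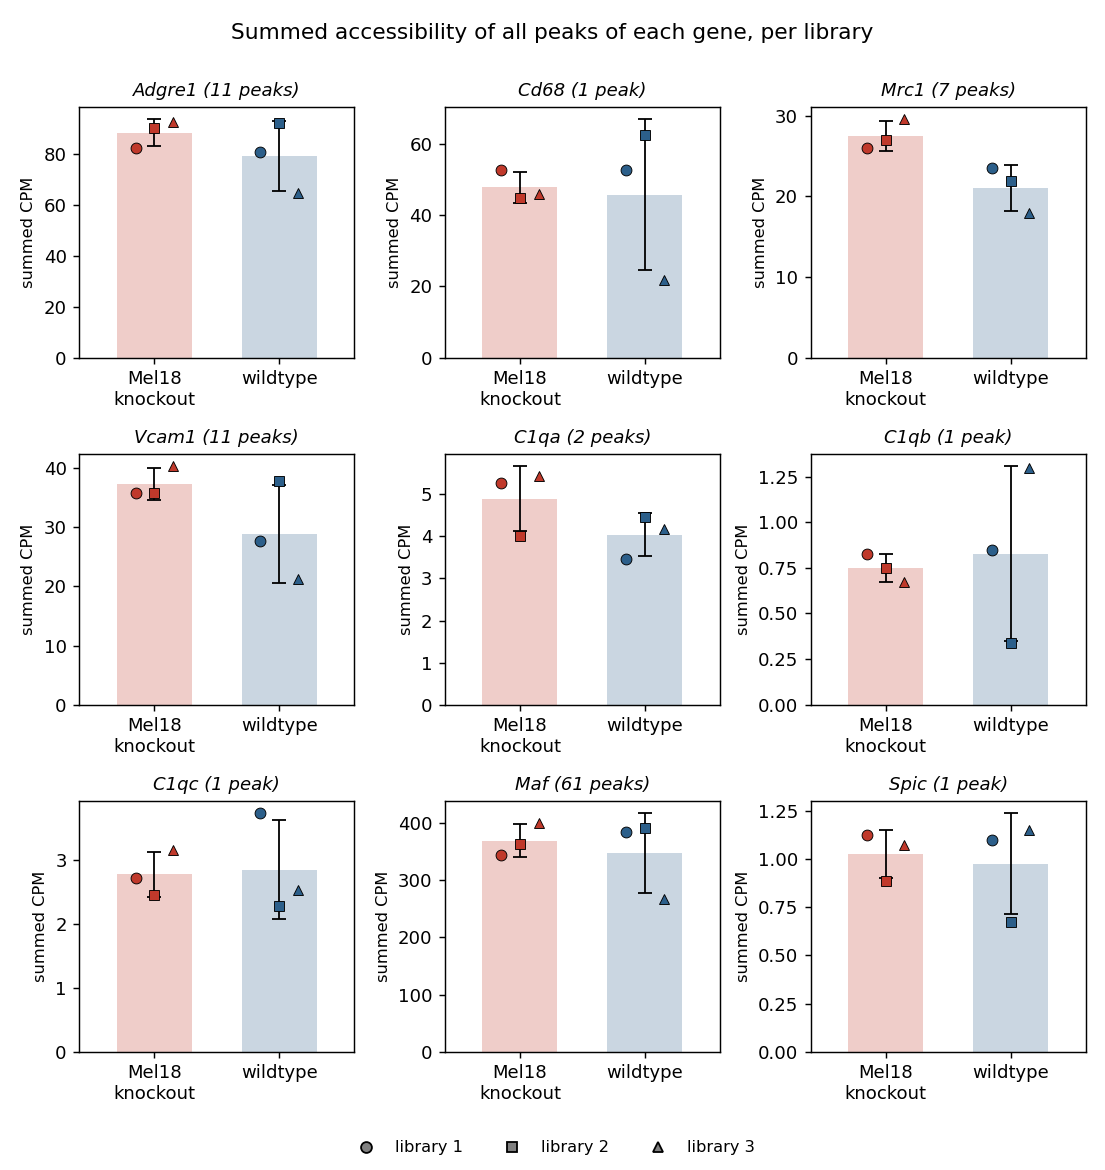
Summed CPM of all peaks of each of the 9 genes (y axis), with Mel18 knockout libraries left and wildtype libraries right of each panel. Bars are means, error bars are SD (n = 3 each) and symbols are libraries 1, 2 and 3. Only Mrc1 has groups that do not overlap.

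Adgre1 encodes F4/80, the adhesion receptor by which mouse macrophages are commonly recognised. Its 11 peaks held 82.3, 90.4 and 92.5 CPM in knockout and 80.8, 92.1 and 64.9 CPM in wildtype. Knockout and wildtype libraries 1 and 2 covered nearly the same range, and wildtype library 3 was lowest. The log2 fold change of the sum was 0.16 ± 0.123 (SE; edgeR adjusted p = 0.656), and 0.03 without wildtype library 3. The promoter peak, 72 bp upstream (chr17:57358447-57358781), held 9.33, 9.37 and 9.33 CPM in knockout and 8.06, 11.9 and 5.07 CPM in wildtype. The knockout libraries lay inside the wildtype range, and the log2 fold change was 0.17 ± 0.281 (SE; edgeR adjusted p = 0.917), or -0.09 without wildtype library 3.

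Most Adgre1 reads lay upstream of the gene, in 9 peaks between 27.5 and 11.5 kb before the start. The strongest of them, at 22.8 kb (chr17:57335777-57335985), held 17.6, 18.6 and 15.3 CPM in knockout and 19.1, 18.7 and 15.9 CPM in wildtype. The groups overlapped, and the log2 fold change was -0.06 ± 0.171 (SE; edgeR adjusted p = 0.959). A weak neighbour at 23.2 kb (chr17:57335433-57335523) had the smallest p of the gene and held 1.51, 2.57 and 2.12 CPM in knockout and 1.33, 1.37 and 1.49 CPM in wildtype. Every knockout library was above every wildtype library there, but the log2 fold change of 0.56 ± 0.347 did not pass the test (SE; edgeR adjusted p = 0.702). Over the 11 peaks log2 fold changes ran between -0.14 and 0.56, and 9 were above 0, or 5 without wildtype library 3. With trended normalization and without that library, 4 were above 0.

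Cd68 encodes a heavily glycosylated lysosomal protein of macrophages and other phagocytes. Its single peak, at the promoter (chr11:69666025-69666476), was the strongest of all 96 member peaks and exceeded 83.8% of promoter peaks in CPM per kb. It held 51.8, 43.4 and 44.3 CPM in knockout and 55.2, 63.5 and 22.6 CPM in wildtype. Wildtype libraries 1 and 2 were above all knockout libraries and wildtype library 3 was below them. The log2 fold change was -0.02 ± 0.292 (SE; edgeR adjusted p = 0.994). Without wildtype library 3 it was -0.35 (adjusted p = 0.0618), and without wildtype library 2 it was 0.25 (adjusted p = 0.774). With trended normalization and without wildtype library 3 it was -0.12 (adjusted p = 0.74). The strongest of the 10 level classes, which held this peak, had a median of -0.21 over all its peaks with all libraries.

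Mrc1 encodes the mannose receptor CD206, which takes up glycoproteins. Its 7 peaks summed to 26.0, 27.0 and 29.6 CPM in knockout and 23.5, 21.9 and 17.9 CPM in wildtype, and all knockout libraries were higher. The means were 27.5 ± 1.85 CPM in knockout and 21.1 ± 2.87 CPM in wildtype (SD, n = 3 each). Knockout was 1.31-fold higher in the fit, or 0.39 ± 0.142 in log2 fold change, and did not pass (SE; unadjusted p = 0.0219, adjusted p = 0.402, edgeR quasi-likelihood test). Without wildtype library 3 the log2 fold change was 0.28. By exact permutation of the library sums (two-sided) p was 0.1, the lowest value possible with 3 against 3.

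The Mrc1 peaks that separated the groups lay away from its promoter. The promoter peak, 698 bp upstream (chr2:14228662-14228769), held 0.522, 0.792 and 1.74 CPM in knockout and 1.06, 1.03 and 0.969 CPM in wildtype, so the wildtype values lay within the knockout range. The peak with the smallest p lay 24.9 kb upstream in an intron of Tmem236 (chr2:14204437-14204578) and held 2.26, 3.50 and 2.96 CPM in knockout and 1.68, 1.97 and 1.72 CPM in wildtype. The groups did not overlap, and the log2 fold change was 0.69 ± 0.310 (SE; unadjusted p = 0.0442, adjusted p = 0.531). A second peak in that intron, at 22.5 kb, is named because it also separated the groups (log2 fold change 0.42 ± 0.245, SE; adjusted p = 0.674). The strongest member peak of Mrc1 lay in its own intron, 15.5 kb downstream of the start (chr2:14244698-14245060). It held 7.36, 8.31 and 10.4 CPM in knockout and 8.59, 6.93 and 6.26 CPM in wildtype, with overlap. The log2 fold change was 0.26 ± 0.234 (SE; edgeR adjusted p = 0.811), or 0.17 without wildtype library 3 and 0.11 without knockout library 3. Introns of Mrc1 also held 5 peaks whose nearest start is the microRNA gene Mir511, which are no members. The strongest of them (chr2:14249813-14250529) averaged 22.8 CPM over the 6 libraries, above every member peak of Mrc1. The log2 fold changes of these Mir511 peaks ran between 0.12 and 1.57, and their smallest adjusted p was 0.3. The value of 1.57 belonged to a very weak peak, with 26, 19 and 33 reads in knockout and 2, 7 and 11 in wildtype.

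Vcam1 encodes an adhesion molecule bound by the integrin of Itga4 and Itgb1, present on marrow macrophages and also on stromal and endothelial cells. Its 11 peaks summed to 35.8, 35.8 and 40.3 CPM in knockout and 27.7, 37.7 and 21.2 CPM in wildtype. Wildtype library 2 lay within the knockout range and the other wildtype libraries lay below it. The log2 fold change was 0.37 ± 0.190 (SE; edgeR adjusted p = 0.496), 0.18 without wildtype library 3 and 0.61 without wildtype library 2. Of the 11 peaks 10 had a log2 fold change above 0, where 51.8% of all peaks and 57.2% of all peaks away from promoters did. The count was 8 without wildtype library 3, and 6 with trended normalization and without that library. The 10 stromal and endothelial marker genes, all with peaks, summed to between 436.2 and 439.9 CPM in knockout and to between 416.7 and 447.7 CPM in wildtype, so their sums overlapped. The lowest of these sums was that of wildtype library 3.

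The strongest Vcam1 peak lay 32.7 kb upstream (chr3:116162242-116162626) and held 10.6, 10.1 and 11.8 CPM in knockout and 8.15, 9.58 and 4.62 CPM in wildtype. All knockout libraries were higher, and the log2 fold change was 0.55 ± 0.265 (SE; edgeR adjusted p = 0.584), or 0.29 without wildtype library 3. The smallest p belonged to a very weak peak 40.6 kb upstream (chr3:116170255-116170327), with 0.811, 1.12 and 1.03 CPM in knockout and 0.354, 0.599 and 0.522 CPM in wildtype. These values rest on 14 to 17 reads per library in knockout and 4 to 7 in wildtype, and the log2 fold change was 0.98 ± 0.447 (SE; edgeR adjusted p = 0.542). The promoter peak, 706 bp upstream (chr3:116130292-116130496), held 4.64, 2.38 and 4.18 CPM in knockout and 3.01, 4.53 and 2.09 CPM in wildtype, with overlap, and the log2 fold change was 0.23 ± 0.350 (SE; edgeR adjusted p = 0.908). It was -0.01 without wildtype library 3, and with any other library left out it ran between 0.04 and 0.54.

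**Figure D4:**
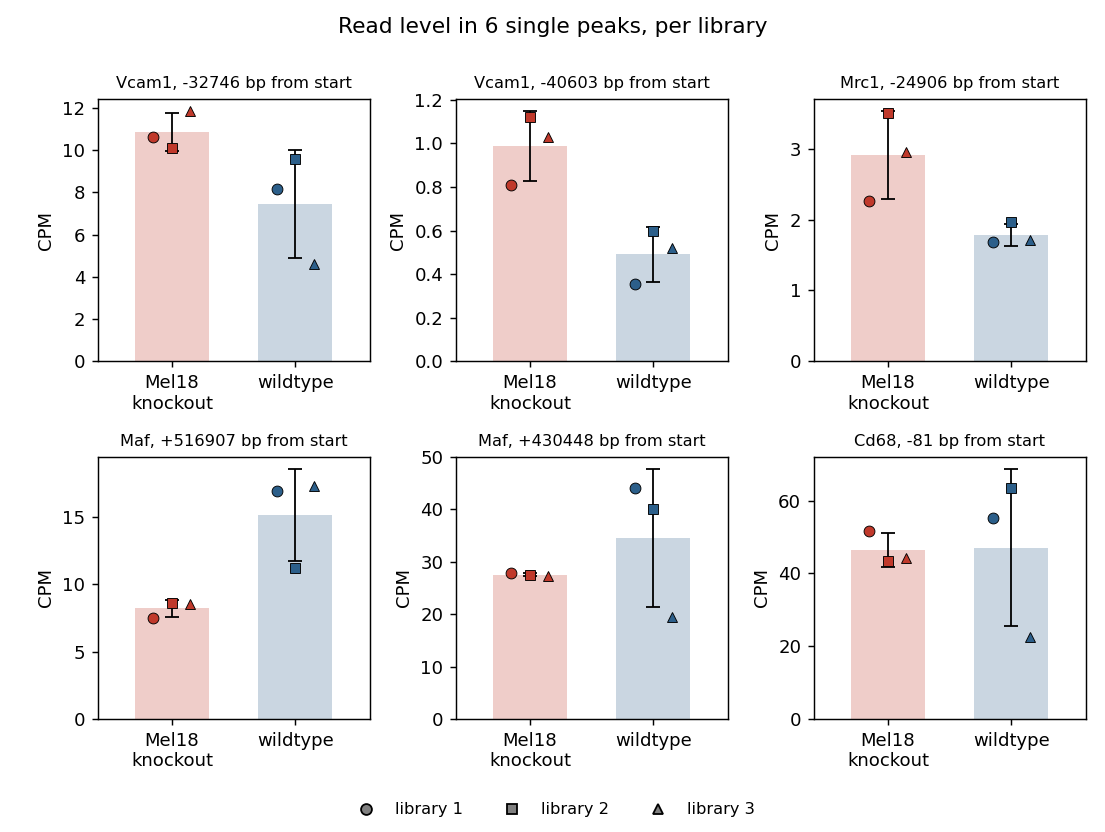
CPM per library (y axis) of 6 single peaks, with Mel18 knockout left and wildtype right; bars are means, error bars SD (n = 3 each) and symbols libraries 1, 2 and 3. Both Vcam1 peaks and the Mrc1 peak are higher in every knockout library, the Maf peak 516.9 kb downstream is lower in every knockout library, and the groups overlap at the Cd68 promoter and at the Maf peak 430.4 kb downstream.

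C1qa, C1qb and C1qc lie side by side on chromosome 4 and encode the chains of C1q, the recognition subunit of complement that tags apoptotic cells. The cluster had 4 weak peaks in all, with no library above 3.09 CPM in knockout or 3.90 CPM in wildtype. Only C1qc had a promoter peak (chr4:136892995-136893189), over the sequence printed above, with 2.67, 2.38 and 3.02 CPM in knockout and 3.90, 2.31 and 2.61 CPM in wildtype. The groups overlapped, and the log2 fold change was -0.12 ± 0.303 (SE; edgeR adjusted p = 0.946).

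The C1qa peaks lay upstream of the start. The one at 8.43 kb (chr4:136907188-136907354) held 2.55, 2.64 and 3.09 CPM in knockout and 2.75, 2.82 and 2.68 CPM in wildtype, a log2 fold change of 0.00 ± 0.274 (SE; edgeR adjusted p = 0.999). The one at 25.9 kb (chr4:136924636-136924789) held 2.61, 1.25 and 2.12 CPM in knockout and 0.885, 1.71 and 1.64 CPM in wildtype, with overlap (log2 fold change 0.49 ± 0.397, SE; adjusted p = 0.784), and the log2 fold change was 0.22 without wildtype library 1 and 0.25 without knockout library 1. The single C1qb peak, 9.02 kb downstream of the start and past the end of the gene (chr4:136877100-136877211), held 0.811, 0.726 and 0.643 CPM in knockout and 0.885, 0.342 and 1.34 CPM in wildtype. That is only 10 to 14 reads per library in knockout and 4 to 18 in wildtype, and no difference was detected (log2 fold change -0.25 ± 0.500, SE; edgeR adjusted p = 0.933). Without wildtype library 3 the log2 fold change was 0.26, and without wildtype library 2 it was -0.65.

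Spic is required in mice for red pulp macrophages of the spleen, and heme induces it by removing the repressor Bach1. It had 1 peak, 13.1 kb downstream of the start and outside the gene (chr10:88669841-88669937), with 1.101, 0.858 and 1.03 CPM in knockout and 1.15, 0.684 and 1.19 CPM in wildtype. The knockout values lay within the wildtype range (log2 fold change -0.02 ± 0.406, SE; adjusted p = 0.995). Its promoter window held no peak, as at C1qb.

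Maf, the transcription factor c-Maf, held the bulk of the signal, with 61 peaks spread between 315.1 kb upstream and 611.2 kb downstream of its start. Their sum was 343.2, 363.0 and 400.2 CPM in knockout and 384.1, 390.3 and 266.7 CPM in wildtype. The groups overlapped, with wildtype library 3 lowest of the 6. The log2 fold change was 0.09 ± 0.139 (SE; edgeR adjusted p = 0.854), and -0.08 without wildtype library 3. Of the 61 peaks 34 lay above 0 and 27 below.

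Around the Maf start, 3 of 4 peaks had lower means in knockout. The 4 peaks within 12 kb summed to 26.1, 33.2 and 35.8 CPM in knockout and 40.8, 36.3 and 37.7 CPM in wildtype, and every knockout library was below every wildtype library. The means were 31.7 ± 5.02 CPM in knockout and 38.3 ± 2.32 CPM in wildtype (SD, n = 3 each), with p = 0.1 by exact permutation, two-sided, again the lowest value possible. This window was drawn with the values known, and no share was computed for like windows of other genes. Of all single promoter peaks, 23.6% separated on the lower side. The peak 1.06 kb upstream (chr8:115707801-115708106), chosen after its values were seen, held 12.5, 17.0 and 18.1 CPM in knockout and 24.2, 18.2 and 20.6 CPM in wildtype, lower in knockout by a narrow margin (log2 fold change -0.41 ± 0.192, SE; adjusted p = 0.568).

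Both Maf promoter peaks overlapped between the groups. The one 416 bp upstream (chr8:115707181-115707438) held 5.91, 4.88 and 5.79 CPM in knockout and 8.41, 5.22 and 9.10 CPM in wildtype (log2 fold change -0.46 ± 0.257, SE; adjusted p = 0.657), or -0.69 without wildtype library 2 and -0.29 without wildtype library 3. The one 889 bp downstream (chr8:115705895-115706115) held 2.55, 4.02 and 3.99 CPM in knockout and 3.81, 4.96 and 4.25 CPM in wildtype (log2 fold change -0.30 ± 0.276, SE; adjusted p = 0.814), or -0.12 without knockout library 1.

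Farther away the Maf locus was mixed. The 5 peaks more than 12 kb upstream had log2 fold changes between -0.52 and 1.02, the 38 peaks between 80.3 and 308.7 kb downstream had values between -0.93 and 0.82, and the 14 peaks in introns of Wwox had values between -0.88 and 1.14. Wwox is the neighbouring tumour suppressor gene, whose far introns lie closer to the start of Maf than to its own. The 38 downstream peaks summed to 216.7, 224.0 and 249.9 CPM in knockout and to 245.3, 252.0 and 157.7 CPM in wildtype, and the 14 Wwox peaks to 86.6, 88.7 and 91.6 CPM in knockout and to 107.7, 103.9 and 76.8 CPM in wildtype. In both regions wildtype library 3 lay below every knockout library, and the groups overlapped.

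The smallest p of all 96 peaks belonged to a peak in a Wwox intron, 516.9 kb downstream of the Maf start (chr8:115189824-115190149). It held 7.48, 8.58 and 8.55 CPM in knockout and 16.9, 11.2 and 17.3 CPM in wildtype, so every knockout library was lower. The means were 8.20 ± 0.630 CPM in knockout and 15.1 ± 3.41 CPM in wildtype (SD, n = 3 each), 0.542-fold. The log2 fold change was -0.88 ± 0.222 (SE; unadjusted p = 0.00173, adjusted p = 0.155), -0.89 after trended normalization (adjusted p = 0.878) and -0.77 without wildtype library 3 (adjusted p = 0.0276). In the authors' deposited table its log2 fold change is -0.89, with an adjusted p of 0.275.

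The strongest Maf peak, in another Wwox intron at 430.4 kb (chr8:115276290-115276601), held 27.9, 27.5 and 27.2 CPM in knockout and 44.0, 40.0 and 19.5 CPM in wildtype. The knockout libraries were nearly equal, and the wildtype libraries lay on both sides of them. Its log2 fold change was -0.32 ± 0.247 (SE; edgeR adjusted p = 0.772), and -0.60 without wildtype library 3, where it passed (adjusted p = 0.00157). It was -0.13 without wildtype library 1 and -0.21 without wildtype library 2. A peak at 308.7 kb, between genes (chr8:115398069-115398409), held 26.3, 25.8 and 26.1 CPM in knockout and 40.7, 33.6 and 21.9 CPM in wildtype, again on both sides (log2 fold change -0.30, adjusted p = 0.716, and -0.51 without wildtype library 3, adjusted p = 0.0112). It is named because it passed in that comparison. With trended normalization and without wildtype library 3, no member peak passed (smallest adjusted p = 0.117).

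In the other direction, a weak Wwox intron peak at 431.8 kb (chr8:115274989-115275109) next to the strongest one held 2.03, 2.24 and 2.38 CPM in knockout and 0.885, 1.54 and 0.597 CPM in wildtype. All knockout libraries were higher, and the log2 fold change was 1.14 ± 0.395 (SE; unadjusted p = 0.0134, adjusted p = 0.361). It and the other 3 Maf peaks with higher values at an unadjusted p under 0.05, at 86.9 kb upstream and 479.5 and 479.9 kb downstream, were singled out after their values were seen. Their log2 fold changes were 1.02, 0.63 and 0.64, with adjusted p-values between 0.457 and 0.486.

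**Figure D5:**
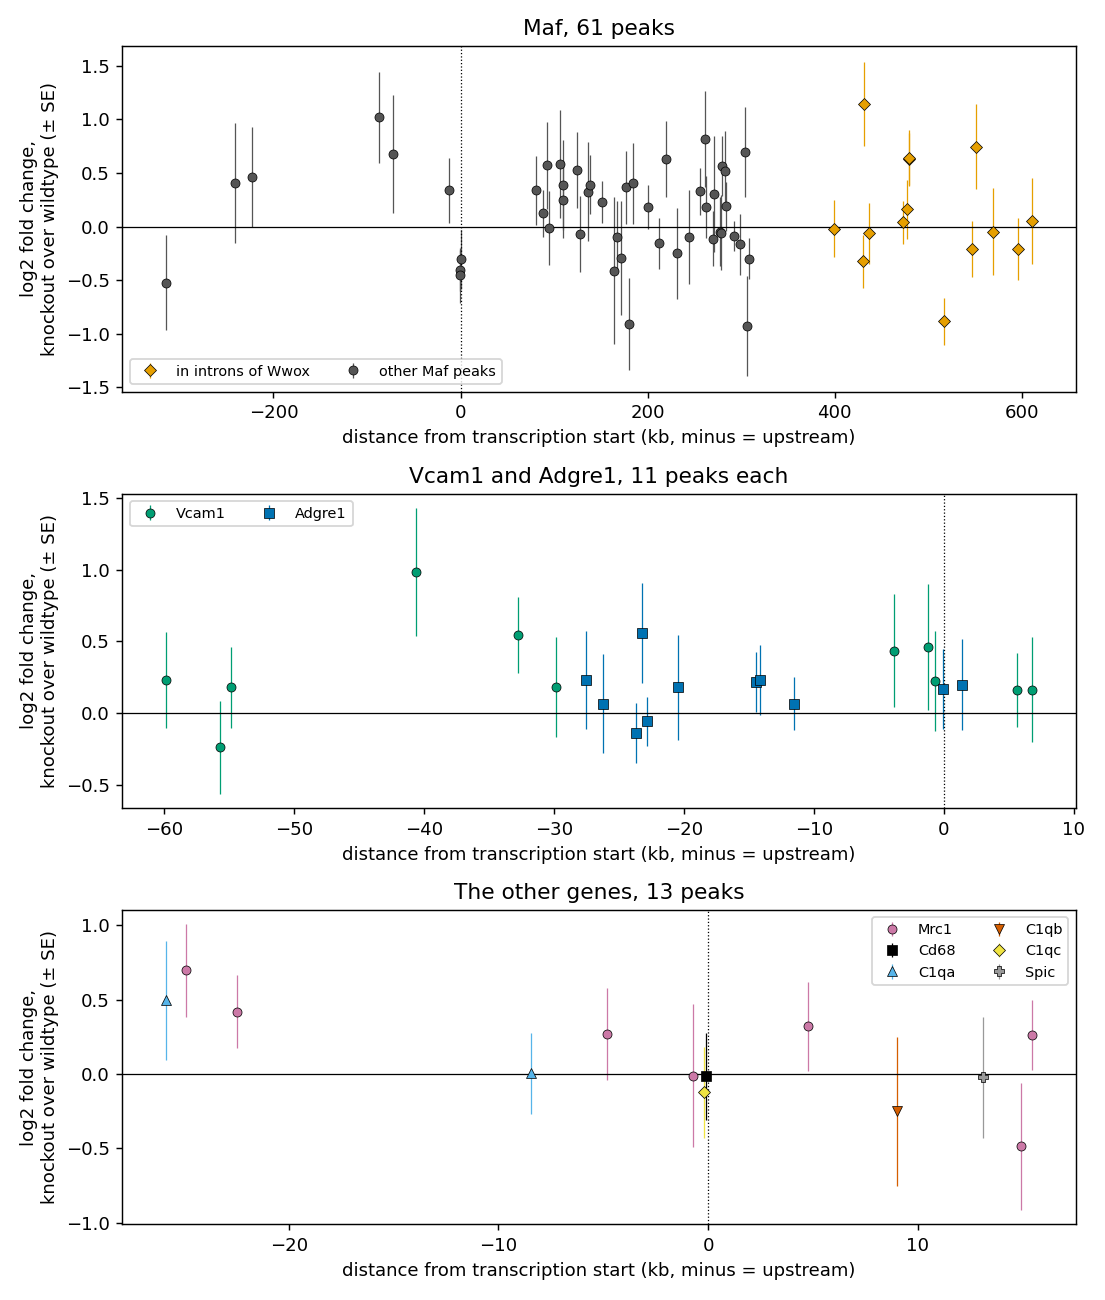
Log2 fold change of knockout over wildtype with its SE (y axis) against distance from the transcription start in kb (x axis) for the 61 Maf peaks, the 11 peaks each of Vcam1 and Adgre1, and the 13 peaks of the other genes. At Maf the 3 peaks nearest the start lie below 0 and the one 11.9 kb upstream lies above it. Distant Maf peaks lie on both sides, with the lowest Wwox intron peak at -0.88, while 10 Vcam1 peaks lie above 0.

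Further macrophage genes were counted in the same way. Of 21 such genes 19 had peaks, 115 in all, and Timd4 and Vsig4 had none. Their median log2 fold change was 0.18, or 0.06 without wildtype library 3, with 0 peaks past the threshold, or 1 lower without that library, where 2.45% of all peaks were lower. At an unadjusted p under 0.05, 5 of the 115 peaks were higher (4.35%) and 1 was lower (0.870%), beside 3.1% and 5.97% of all peaks. Their summed level was 740.7, 723.6 and 742.7 CPM in knockout and 732.1, 764.3 and 598.9 CPM in wildtype, again lowest in wildtype library 3.

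Among these genes Nr1h3, the cholesterol sensor LXR alpha, had 10.4 ± 1.22 CPM in knockout and 7.61 ± 1.04 CPM in wildtype, summed over 4 peaks (SD, n = 3 each; log2 fold change 0.45, edgeR adjusted p = 0.426). Mertk, a receptor for engulfing apoptotic cells, had 10.8 ± 0.331 CPM in knockout and 8.35 ± 1.32 CPM in wildtype over 3 peaks (log2 fold change 0.38, edgeR adjusted p = 0.458). Both were higher in every knockout library without passing the test, and they are named because they were the 2 of 19 genes that separated the groups, chosen after their values were seen. Of all genes, 8.49% separated on the higher side. Csf1r, the receptor for the main macrophage growth factor, overlapped between the groups, with 58.5 ± 5.07 CPM in knockout and 53.9 ± 10.7 CPM in wildtype (log2 fold change 0.12, edgeR adjusted p = 0.798).

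The partners and regulators of the 9 genes were also measured. All 10 had peaks, 110 in all, with a median log2 fold change of 0.07 and 0 peaks past the threshold. The median was 0.02 without wildtype library 1, 0.13 without wildtype library 2 and 0.08 without wildtype library 3. It was 0.04 without knockout library 1, 0.12 without knockout library 2 and -0.01 without knockout library 3. Without wildtype library 2, 2 of the 110 peaks passed on the lower side, beside 533 of all 109859 peaks. Without wildtype library 3, 2 of the 110 (1.82%) passed on the lower side, beside 2.45% of all peaks. At an unadjusted p under 0.05, 2 were higher (1.82%) and 8 lower (7.27%), beside 3.1% and 5.97% of all peaks. Spi1, which encodes PU.1, held 64.5 ± 1.79 CPM in knockout and 61.2 ± 16.3 CPM in wildtype (SD, n = 3 each; log2 fold change 0.08, edgeR adjusted p = 0.906), and Bach1, the repressor of Spic, held 261.4 ± 11.5 CPM in knockout and 276.4 ± 16.5 CPM in wildtype (log2 fold change -0.08, edgeR adjusted p = 0.711). Itga4 and Itgb1, the chains of the Vcam1 receptor, had log2 fold changes of 0.04 and -0.04. Spib, an ETS factor of the same family as Spic that acts in B cells and plasmacytoid dendritic cells, had the smallest p of the 10. It held 17.5, 21.9 and 21.0 CPM in knockout and 31.8, 31.0 and 27.2 CPM in wildtype, lower in every knockout library, without passing the test (log2 fold change -0.57 ± 0.138, SE; edgeR adjusted p = 0.368). Spib was singled out after its values were seen. At an unadjusted p under 0.05, 1 of the 10 genes was lower and 1 higher, beside 6.71% and 4.39% of all genes. Csf1, the ligand of Csf1r, held 84.5 ± 8.07 CPM in knockout and 66.3 ± 11.6 CPM in wildtype (log2 fold change 0.35, edgeR adjusted p = 0.409), with overlap.

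The 3 genes outside the group whose summed level was most like that of the member peaks over the 6 libraries were Hsd11b1, Mir383 and F730035M05Rik, with Pearson r of 0.999, 0.999 and 0.998. They were the highest of 16578 candidates with a mean of 5 CPM or more. With 6 libraries and so many candidates, such values describe these libraries, and the low wildtype library 3 is shared by all points compared.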

How the data were processed

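ATAC-seq of lineage-negative marrow cells was compared between 3 Mel18 knockout and 3 wildtype mice, grouped by the labelled genotype. The submitters' processing notes list Bowtie2 1.2.2, MACS2 2.1.1, Trimmomatic 0.40, Picard, FastQC, MultiQC 0.11.5 and the build mm10, without saying what each did. The deposited table holds, per the file headers, peak intervals, whole-number read counts per library without normalization and the distance to the nearest start. The authors' log2 fold changes and the authors' p-values were used only where named, and 12 other columns per library were not used. For read counting, Tn5 shifting and duplicate removal, which affect counts, the method is not given in the sources used here. Count columns name a genotype but no mouse.

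Counts were tested with edgeR 4.0.16 (R 4.3.3; TMM, robust quasi-likelihood test, filterByExpr, under which every peak stayed), and p-values were adjusted by Benjamini-Hochberg across the whole table, with 0.05 as threshold. Unnamed adjusted p-values are from that test. Counts summed per gene symbol were tested in the same way with their own TMM factors, so gene CPM of a 1-peak gene differs slightly from its peak CPM. SE is the size of the log2 fold change over the square root of F. Peaks at most 1 kb from a start were promoter peaks, and 3 peaks without a distance were not counted as such. Peak starts were turned to 1-based. Trended normalization used a loess curve per library (span 0.3, prior count 2). Alternatives were DESeq2 1.42.0 (Wald test, size factors), the likelihood ratio test, library sizes alone, a 1 CPM filter and leaving out each library. Scripts were tested on simulated data with known fold changes. Tables used Python 3.11.15 with pandas 2.3.3 and scipy 1.17.1.

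All 9 genes were named. Peaks given in full were each gene's promoter peaks, its strongest peak and that with the smallest p, and other single peaks were chosen after seeing values. The members, gene lists and Maf windows were chosen with earlier results of these data known. Sequences are RefSeq's, and intervals on counts would cover counting error only.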

Additional observations from a re-analysis of the deposited data

How the results depend on the processing

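Over all peaks, 0 passed in the main test, 468 with DESeq2 size factors in edgeR, 3 with DESeq2's Wald test, 3 with the likelihood ratio test, 0 to 3013 when 1 library was left out (3013 without wildtype library 3, 534 without wildtype library 2) and 117 with trended normalization and without wildtype library 3, an alternative chosen after seeing the data. Over all genes the count was 0, and 22 with DESeq2, 11 with the likelihood ratio test and 0 to 731 when 1 library was left out. Member peaks past the threshold numbered 0 in each of these, apart from the 3 without wildtype library 3 (range 0 to 3). Member genes past the threshold numbered 0 in each alternative, though DESeq2 gave an adjusted p for Adgre1 and Maf alone. The member median of 0.18 ran between 0.03 and 0.24 when 1 library was left out, was 0.30 with library sizes alone (all peaks 0.14), and was -0.022 with trended normalization and without wildtype library 3. With 1 library left out, member peaks at an unadjusted p under 0.05 ranged between 1 and 9 higher and between 1 and 6 lower.

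The log2 fold changes that changed sign under some alternative had not passed the threshold. With 1 library left out they ran as follows, lowest and highest. Among single peaks, the range was -0.13 to 0.019 for the Adgre1 22.8 kb peak, -0.092 to 0.49 for the Adgre1 promoter, -0.084 to 0.058 for the C1qa 8.43 kb peak, -0.65 to 0.26 for the C1qb peak, -0.29 to 0.090 for the C1qc promoter, -0.35 to 0.25 for the Cd68 promoter, -0.63 to 0.31 for the Mrc1 promoter, -0.26 to 0.13 for the Spic peak and -0.0085 to 0.54 for the Vcam1 promoter. Among gene sums it was -0.27 to 0.37 for the Cd68 sum, -0.52 to 0.33 for the C1qb sum, -0.16 to 0.20 for the C1qc sum, -0.076 to 0.18 for the Maf sum and -0.13 to 0.21 for the Spic sum. With library sizes alone, values were 0.065 for the Adgre1 22.8 kb peak, 0.11 for the Cd68 promoter, 0.11 for the Mrc1 promoter, 0.10 for the Spic peak and 0.00058 for the C1qc sum. After trended normalization, values were 0.011 for the Adgre1 22.8 kb peak, -0.087 for the C1qa 8.43 kb peak and 0.19 for the Cd68 promoter. With that and without wildtype library 3, they were -0.056 for the Adgre1 promoter, -0.093 for the C1qa 8.43 kb peak, 0.035 for the C1qb peak and -0.070 for the Vcam1 promoter. Over promoter peaks only, they were 0.066 for the C1qc sum and -0.21 for the Maf sum. With DESeq2 size factors, the value was -0.014 for the C1qa 8.43 kb peak. With DESeq2's Wald test, it was -0.014 for the C1qa 8.43 kb peak. The cause was not tested.

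No paired analysis was possible because the mice are numbered 1 to 6 across both groups, so the groups share no number, and the count columns carry only numbers within a group. With 3 libraries a group, exact tests of single values cannot go below p = 0.1. Low counts limit the peaks of C1qb and Spic and the Mrc1 promoter peak.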
